A study of Gallus gallus with 4 samples.

Results

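Gene levels in chick area vasculosa were compared between the HH12 library and the HH10 library, leaving out the HH11 library that lies between them in stage. Genes on numbered chromosomes were taken, and 10141 of 14932 had at least 1 FPKM (fragments scaled to transcript length and library size) in either library. Of these, 244 genes were at least 2-fold higher in HH12, which is 2.41% of those kept, and 235 were at least 2-fold lower, which is 2.32%. Both together make 479 genes, or 4.72%. These shares over all kept genes are the background for the list counts below, where few genes can make a large share of a short list. Differences are log2((HH12 + 1)/(HH10 + 1)) of FPKM, so that 1 means 2-fold, and on this scale weakly expressed genes appear less far apart than their FPKM are.

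The samples were total RNA of the area vasculosa of Gallus gallus embryos that had developed in an incubator to HH10, HH11, HH12 or HH13 of the Hamburger-Hamilton series. These stages are steps of early embryo formation counted by visible form. The labels name no genotype, strain or treatment, and how many embryos went into a library is not given. Each stage had 1 library, which leaves every difference without a replicate check, and a difference between stages cannot be told apart from one between these libraries.

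The area vasculosa is the part of the yolk sac around the embryo proper in which mesoderm forms blood islands. The outer cells of an island become endothelium and the inner cells become primitive red cells, which make haemoglobin from embryonic globin chains. The underlying endoderm takes up yolk and secretes carrier proteins of the plasma, and ectoderm covers the upper face.

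The HH10 library stood apart from the other libraries in its ribosomal RNA and in several other noncoding RNAs. Rows named 5.8S ribosomal RNA held 5.94% of the total FPKM of all rows in HH10, against 0.574%, 1.03% and 1.46% in HH11, HH12 and HH13. The unnamed row ENSGALG00000026592 had 126367 FPKM in HH10 and between 5099 and 11180 FPKM in the others. The noncoding RNA 7SK had 1036, 23.9, 47.8 and 87.9 FPKM from HH10 to HH13, and RNase_MRP had 443, 5.01, 3.08 and 9.19. Small nucleolar RNAs were counted by the name prefixes SNORA, SNORD, SCARNA, sno and ACA. RNA names other than these and the microRNAs, ribosomal RNA included, were held by 17 lower and 2 higher genes. U3 is a small nucleolar RNA without these prefixes, so its rows are among the 17 and the 2. On chromosome W, 7 of 7 kept genes were at least 2-fold higher in HH12 than in HH10. The number of reads is unknown, but in the steps between low values 1 read was worth 0.911 times as much FPKM in HH12 as in HH10. The balance of calls depended on scaling. With both libraries scaled to the same total, the median difference moved up by 0.21, and 415 genes were higher and 169 lower, so that 71.1% of the calls were higher. With the ribosomal rows, the globins and ENSGALG00000026592 left out of the total, the median moved by −0.16, with 179 higher and 330 lower, or 35.2% higher. As deposited, 50.9% of the calls were higher, and no direction is drawn from that share.

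Most genes lay close to equal levels. The median difference was 0.04, the lower 5% of genes lay below −0.71 and the upper 5% above 0.74. Calls were most frequent in the lowest of 4 level classes. Under a mean of 5 FPKM, 3.16% of genes were higher and 4.73% lower, whereas from 20 to 100 FPKM the shares were 1.92% and 0.959%. At 100 FPKM and above they were 1.91% and 2.14%, so the share of lower genes did not fall steadily with level. Of the 19 lower genes in this class, only HTRA1 had a symbol. The others were rows with noncoding RNA names and the unnamed row ENSGALG00000026592. The higher genes with a symbol had a median of 12.4 FPKM in HH12, and the lower genes with a symbol had a median of 5.85 FPKM in HH10.

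**Figure D1:**
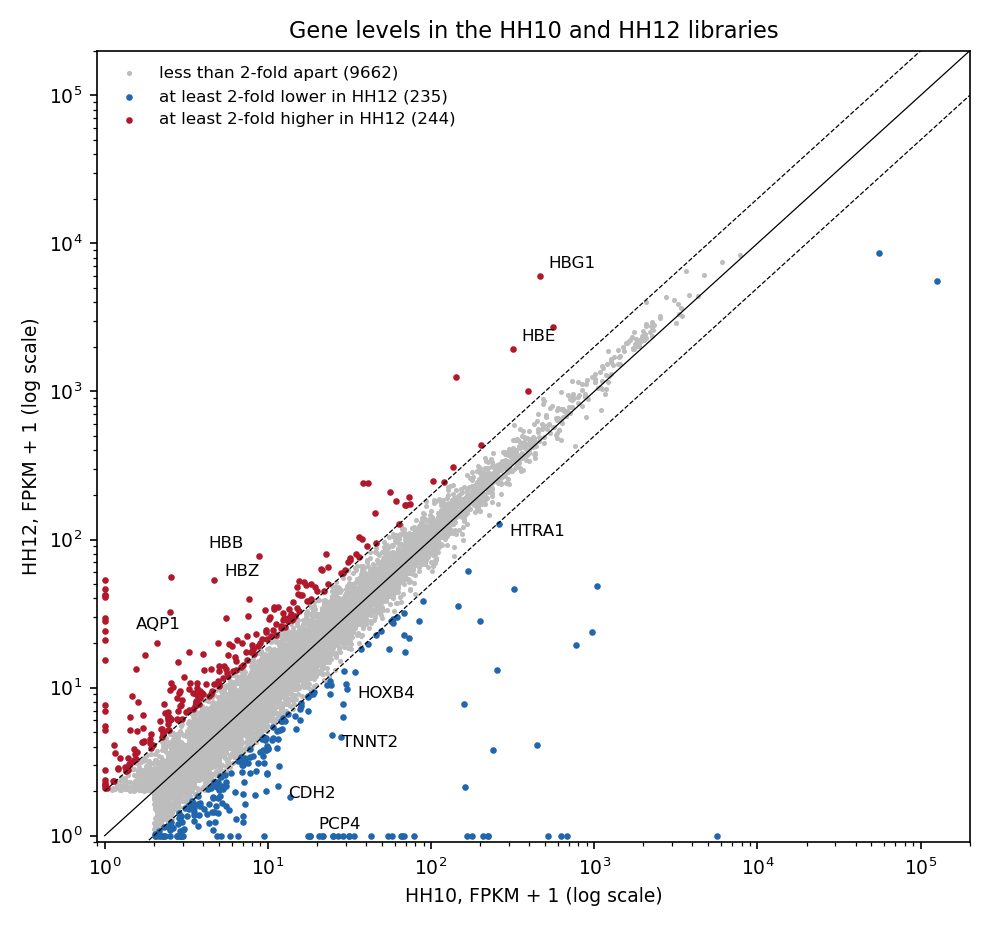
FPKM + 1 of each kept gene in HH10 (horizontal) and HH12 (vertical), both on log axes, with a solid line at equal levels and dashed lines at 2-fold. The 244 higher genes are red and the 235 lower genes blue, and the blue points along the bottom edge are genes listed at 0 in HH12.

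Globin genes were among the largest differences upward. HBG1, a beta-type globin gene on chromosome 1 (galGal4, 193716133 to 193717673), had 463 FPKM at HH10, 51.3 at HH11, 6027 at HH12 and 13730 at HH13, a log2 difference of 3.70 between HH12 and HH10. HBE, near it on chromosome 1 (193727983 to 193730347), had 316, 36.1, 1934 and 4866 FPKM in the same order, a difference of 2.61. HBB (193723743 to 193726040), whose values were lower, had 7.80, 0.363, 75.9 and 731 FPKM, a difference of 3.13. HH11 was the lowest library and HH13 the highest for all 3 of these genes, so the difference to HH10 lies between libraries that were not the extremes. HBZ, an alpha-type globin gene, had 3.69, 0.947, 52.2 and 132 FPKM, a difference of 3.50. The 4 kept globins were all called higher, and their median was 3.32 against 0.04 over all genes. Globin genes resemble each other closely, so how reads were divided among them is uncertain. The kept globins held 0.111% of the FPKM of numbered chromosomes in HH10 and 1.33% in HH12.

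Other red cell genes were also among the higher members. AQP1, a water channel of the red cell membrane, had 1.10 FPKM at HH10, 0.323 at HH11, 18.9 at HH12 and 222 at HH13, a difference of 3.25. EPB42, a protein of the red cell membrane skeleton, had 0.761, 0.145, 15.6 and 27.7 FPKM, a difference of 3.24. TSPO2, an erythroid membrane protein that binds cholesterol, had 54.7, 7.16, 209.6 and 298 FPKM, a difference of 1.92. These were the only 3 higher members among 18 kept genes of the red cell membrane and its enzymes, whose median was 0.45, and none was at least 2-fold lower. CA2, the carbonic anhydrase with the highest mean of that list, went the other way without reaching 2-fold, with 762 FPKM in HH10 and 430 in HH12. In haem synthesis and iron uptake, 5 of 23 kept genes were higher and none lower, with a median of 0.56. They were SLC25A37, which carries iron into mitochondria (9.90 to 33.1 FPKM from HH10 to HH12), and STEAP3, which reduces iron in endosomes (4.73 to 15.6 FPKM). CPOX and UROS, enzymes of haem synthesis, had 18.5 and 9.47 FPKM in HH10 and 46.9 and 21.5 in HH12, and HPX, the plasma protein that binds free haem, had 5.92 and 19.1.

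Of 8 listed markers of the red cell lineage 5 were in the table, and HBG1 and 2 alpha globins outside the numbered chromosomes made nearly all of their sum, which therefore repeats the globin values (1310, 257, 13056 and 29229 FPKM). The other 2 markers were SLC4A1, the anion exchanger of the red cell membrane, with 1.48, 0.633, 37.8 and 129 FPKM, and HEMGN, a nuclear protein of blood progenitors, with 3.11, 1.57, 4.31 and 6.81 FPKM. SLC4A1 also lay outside the numbered chromosomes, so it is not among the higher members counted above. In bulk tissue, more cells of a type and more RNA per cell cannot be told apart. The transcription factors of blood cells were less far apart. Of 18 kept, 1 was higher and 1 lower, with a median of −0.23. SPI1, a factor of myeloid cells, had 1.18 FPKM at HH10, 2.52 at HH11, 4.99 at HH12 and 3.88 at HH13. MEIS1, a homeobox factor of stem cells and of mesoderm, had 6.79, 2.19, 2.41 and 7.95 FPKM. GATA2, the list's highest member, had 87.4 FPKM in HH10 and 85.3 in HH12. The thrombocyte list is named for the nucleated avian counterpart of platelets. It had 1 higher and 1 lower of 14 kept genes (7.14% each, beside 2.41% and 2.32% over all genes) and a median of 0.50. Its higher member was TUBB1, the platelet beta-tubulin, with 20.2, 9.70, 62.5 and 80.0 FPKM. Its 5 markers summed to 25.7, 13.8, 70.7 and 90.9 FPKM, of which TUBB1 was most. Of 5 macrophage markers, 3 were found by name, each under 1 FPKM in HH10 and HH12. They summed to 0.876 and 0.733 FPKM. The listed marker CYBB appears under its other name NOX2 and is not in that sum. NOX2 had 14.8, 10.3, 5.01 and 1.25 FPKM and was at least 2-fold lower in HH12.

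Genes of plasma proteins moved unevenly. Of 28 kept genes of coagulation, complement and serpins, 5 were higher and 1 lower, with a median of 0.58. The list's largest difference upward was that of SERPINH1 (14.5 to 51.8 FPKM), a chaperone of collagen and not a plasma protein. SERPIND1, a thrombin inhibitor, had 31.1 FPKM at HH10, 9.43 at HH11, 74.4 at HH12 and 228 at HH13. F2, the precursor of thrombin, had 7.09, 3.40, 17.1 and 58.4 FPKM, and ITIH2, a serum protease inhibitor chain, had 10.99, 5.96, 24.1 and 106 FPKM. For these 3 genes HH11 was the lowest library and HH13 the highest. F8, a clotting factor, did otherwise, with 4.03, 11.9, 9.25 and 2.69 FPKM, and the lower member THBD, which is thrombomodulin on endothelium, had 7.07, 4.998, 2.44 and 4.91. The carriers of the yolk sac endoderm had 2 higher members of 28, AMBP (16.9 to 37.2 FPKM) and the homeobox gene CDX1 (9.83 to 23.5 FPKM), and a median of −0.01. The sign of that median changed with both libraries at the same total, with a pseudocount of 5 and without the filter on low values. APOA1, a lipoprotein protein and the most abundant gene with a symbol, had 7827 FPKM in HH10 and 8331 in HH12, and TTR, the thyroid hormone carrier, had 3627 and 6496. The 7 endoderm markers in the table summed to 12872 FPKM in HH10 and 16877 in HH12, with 5424 in HH11 and 47927 in HH13, and APOA1, TTR and RBP4 made nearly all of these sums. The other markers did not share one direction. CUBN, a receptor for protein uptake, had 43.8 FPKM in HH10 and 27.5 in HH12. GATA4, an endoderm factor, had 37.9 and 25.9. APOB and AMN had higher values in HH12 than in HH10, with log2 differences of 0.0326 and 0.354.

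Transporters and enzymes of epithelia were among the higher members. SLC26A3, a chloride and bicarbonate exchanger, had 0.479 FPKM at HH10, 0.506 at HH11, 7.79 at HH12 and 21.7 at HH13, a difference of 2.57. SLC39A8, a zinc transporter, had 35.1, 23.9, 103 and 148 FPKM, and SLC5A11, an inositol transporter, had 13.0, 30.9, 27.5 and 7.25. These were the 3 higher members among 29 kept genes of the solute carrier list, with none lower and a median of 0.18. That list is a selection and leaves out other carriers that were called, among them SLC37A1 and SLCO3A1, which were lower, and SLC5A12, SLC6A14, SLC25A37, SLC5A8 and SLC6A6, which were higher. SLC5A8, a monocarboxylate transporter, had 1.82, 21.6, 13.8 and 4.49 FPKM, and SLC6A6, the taurine transporter, had 2.998, 10.7, 16.0 and 2.92. Both were high in HH11 and HH12 and low in HH10 and HH13. OTC, an enzyme of the urea cycle, had 1.89, 0.200, 6.50 and 37.6. The unnamed row ENSGALG00000012332 had 140.4, 221, 1243 and 3198 FPKM.

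Several surface-layer and cytokine genes were high in HH11 and HH12 but not at either end. MIP-3ALPHA, a chemokine, had 2.31 FPKM at HH10, 12.1 at HH11, 16.5 at HH12 and 1.04 at HH13, a difference of 2.40. SERPINB2, an inhibitor of plasminogen activators, had 6.69, 16.6, 38.6 and 10.8 FPKM, a difference of 2.36. KRT20, an epithelial keratin, had 1.53, 6.76, 8.68 and 0.540 FPKM, and IL8, a neutrophil chemokine, had 4.57, 16.9, 12.4 and 0.0494. In these 4 genes HH12 was above HH10, yet HH13 was within a few FPKM of HH10 or below it. Of 32 kept genes of chemokines and cytokine response, 7 were higher (21.9%) and 1 lower (3.13%), with a median of 0.21. Over all genes these shares were 2.41% and 2.32%. The higher ones were CCL5, CISH, IL1RL1, IL8, IRF-3, K60 and MX, and the lower one was SOCS2. Among the higher ones, CISH, IL1RL1 and IRF-3 did not fall after HH12 and were highest in HH13, at 15.8, 15.4 and 40.5 FPKM. MX was near the floor, with 0.0368 FPKM in HH10 and 1.10 in HH12. The list is a selection that leaves out MIP-3ALPHA, LIF, GGCL1, IFNLR1 and IL22RA1, which were also higher. Of these, IL22RA1 was highest in HH13, at 37.8 FPKM. Of 32 ectoderm and epithelial genes, 4 were higher and none lower, with a median of 0.13 that became −0.04 when the total was scaled without ribosomal rows, globins and ENSGALG00000026592. ANXA2, a calcium-dependent membrane-binding protein, had 392 FPKM in HH10 and 1013 in HH12, and LGALS3, a galectin, had 39.7 and 89.4. KRT14 had 9.29, 4.93, 28.8 and 85.9 FPKM from HH10 to HH13, with its lowest value in HH11 and its highest in HH13. It shares its deposited locus with KRT20, KRT9 and the far more abundant KRT19, so reads may have been divided among them. The 7 ectoderm markers summed to 2865 FPKM at HH10, 5371 at HH11, 5135 at HH12 and 4738 at HH13, and the keratins KRT19 and KRT18 made most of that sum. From HH10 to HH12 the other 5 markers did not share one direction, since TFAP2A (45.2 to 30.7 FPKM), DLX5 (11.4 to 9.87), GRHL3 (30.7 to 29.9) and TP63 (3.29 to 2.86) had lower values and CDH1 (52.5 to 64.0) a higher one. The part of ectoderm in the epithelial calls was not tested.

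Stress genes among the higher members included small heat shock proteins. HSPB1, a small chaperone, had 0.563 FPKM at HH10, 19.4 at HH11, 12.4 at HH12 and 21.4 at HH13, a difference of 3.10. HSPB8, of the same family, had 8.74, 45.9, 22.6 and 8.28 FPKM, and SERPINH1, a chaperone of collagen, had 14.5, 62.6, 51.8 and 106. HSPB1 and SERPINH1 were lower in HH10 than in each of the other libraries. The immediate early gene FOSL2, a partner of the Jun proteins, had 23.2, 22.1, 9.38 and 11.3 FPKM. Of 32 kept genes of these classes, 3 were higher and 1 lower, with a median of 0.43. TMSB10, an actin-binding thymosin, was listed at 0 in HH10 and had 9.76, 14.5 and 13.0 FPKM in HH11, HH12 and HH13. An exact 0 can be a failed estimate, so no fold is given for it.

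Contractile and matrix genes of vessel walls and connective tissue were partly higher. RGS4, a regulator of G protein signals, had 6.59 FPKM at HH10, 18.7 at HH11, 29.4 at HH12 and 45.7 at HH13, just past a 4-fold difference. TAGLN, an actin-binding protein of smooth muscle, had 2.82, 2.15, 8.55 and 57.3 FPKM, and MYH11, smooth muscle myosin, had 0.535, 0.411, 2.56 and 17.6. DES, the intermediate filament protein of muscle, had 4.05, 3.67, 9.63 and 9.86 FPKM. These were the 4 higher members of 22 kept mural genes, MYLK (2.30 to 0.603 FPKM) was the lower one, and the median was 0.32. Mural markers, 3 of 5 in the table, summed to 6.15 FPKM in HH10 and 14.2 in HH12. The called genes TAGLN and MYH11 made most of that difference, so the sum repeats their values. The remaining marker PDGFRB had 2.80, 3.66, 3.09 and 1.34 FPKM. Of 37 kept matrix genes, 4 were higher (10.8%) and 2 lower (5.41%), beside 2.41% and 2.32% over all genes. LUM, a collagen-binding proteoglycan, had 5.47, 2.63, 20.1 and 164 FPKM, and COL3A1, a fibrillar collagen, had 11.3, 4.44, 30.8 and 198. DCN, a proteoglycan of the same family as LUM, had 0.686 FPKM in HH10 and 3.28 in HH12, and TNC had 4.42 and 12.9. FBLN2 and NID2, of elastic fibres and basement membrane, were the lower ones, with 28.2 and 10.95 FPKM in HH10 and 11.9 and 4.93 in HH12. The median of the matrix list was −0.14, and its sign changed with scaling.

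**Figure D2:**
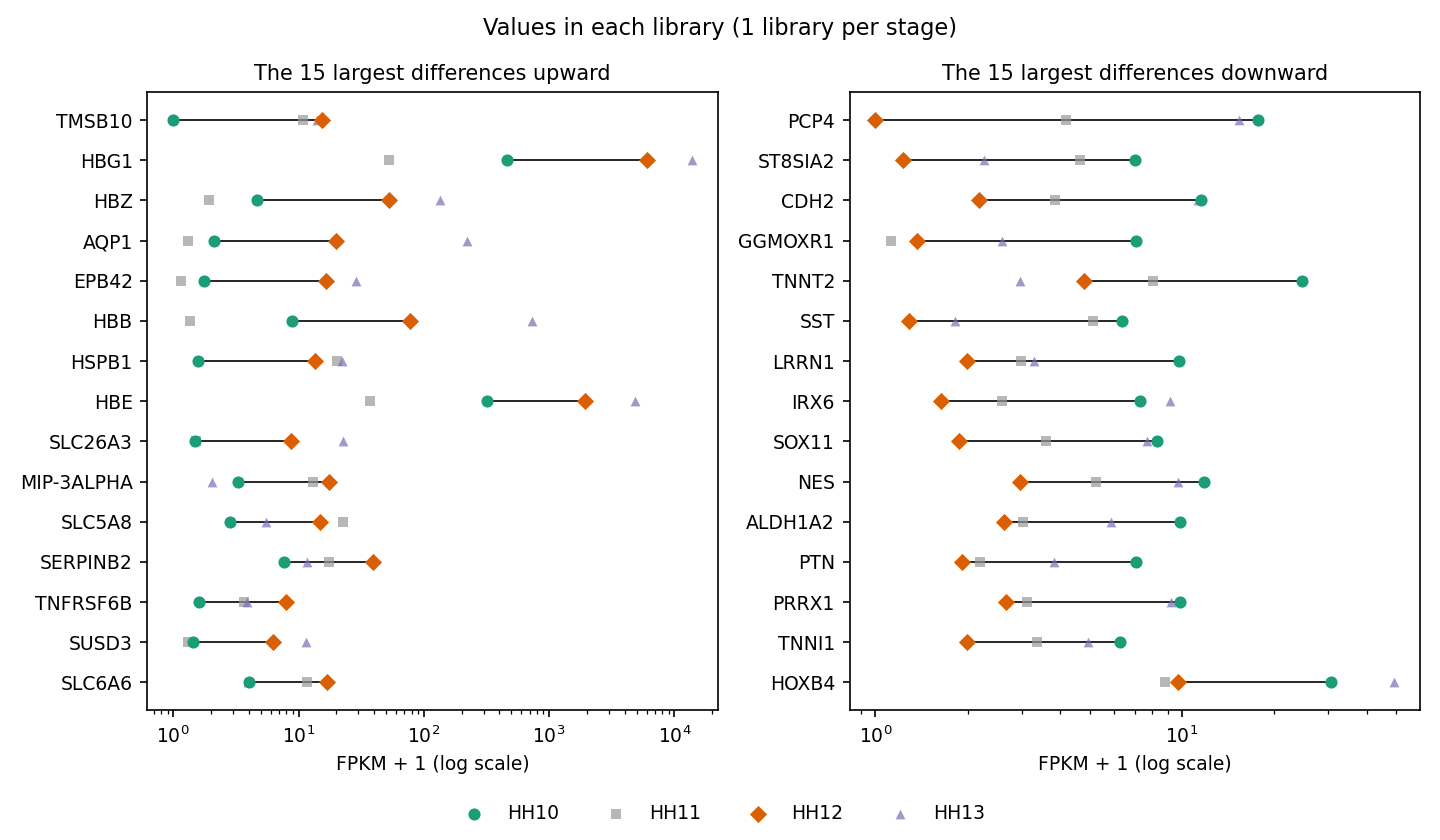
FPKM + 1 on a log axis in the 4 libraries for the 15 genes furthest apart upward (left) and the 15 furthest apart downward (right), each line joining HH10 (circle) to HH12 (diamond). HBG1 runs from 51.3 FPKM in HH11 (square) to 13730 in HH13 (triangle), whereas most genes on the right have their highest value in HH10 or HH13.

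Genes of neural tissue were among the lower members. CDH2, the N-cadherin of neural and cardiac cells, had 10.5 FPKM at HH10, 2.85 at HH11, 1.17 at HH12 and 10.3 at HH13, a difference of −2.41. SOX11, a factor of immature neurons, had 7.30, 2.61, 0.867 and 6.71 FPKM, and NES, an intermediate filament protein of neural progenitors, had 10.8, 4.23, 1.96 and 8.68. For these 3 genes HH12 was the lowest library and HH13 was near HH10. PCP4, a calmodulin-binding peptide of neurons, had 16.7, 3.19 and 14.4 FPKM in HH10, HH11 and HH13 and was listed at 0 in HH12. ST8SIA2, which adds polysialic acid to the neural adhesion molecule NCAM1, had 6.03, 3.65, 0.233 and 1.27 FPKM, a difference of −2.51. SST, the hormone somatostatin, had 5.39, 4.13, 0.289 and 0.813 FPKM. LRRN1, a membrane protein of neural tissue, had 8.74, 1.99, 0.995 and 2.30 FPKM. Of 21 neural list genes on numbered chromosomes, 12 were kept, and of these 7 were lower and none higher, with a median of −1.16 that ranged from −1.91 to −0.12 over the alternatives. They were GBX2, IRX1, NCAM1, NES, OTX2, SOX2 and ZIC2, all at no more than 10.8 FPKM in HH10. FABP7, a fatty acid-binding protein of neural progenitors and the list's highest member, had 172 FPKM in HH10 and 261 in HH12. Neural markers, 4 of 7 found by name, summed to 45.8, 29.8, 30.0 and 74.2 FPKM from HH10 to HH13, of which TUBB3 had 30.0, 23.4, 27.6 and 63.9. The called genes NES and SOX2 made most of the difference between HH10 and HH12, so the sum repeats their values. SOX2 was listed at 0 in HH12. The marker PAX6, present as PAX-6 and not in that sum, had 2.71, 1.19, 0.165 and 0.579 FPKM and was also lower. The epiblast list, which shares OTX2, SOX2 and ZIC2 with the neural list, had 6 lower and 0 higher of 24 kept genes and a median of −0.38.

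Some heart and somite genes were lower by at least 2-fold. TNNT2, the cardiac troponin T, had 23.6 FPKM at HH10, 7.07 at HH11, 3.79 at HH12 and 1.97 at HH13, a difference of −2.36. MYL3, a myosin light chain of heart, had 54.0, 39.0, 17.2 and 12.7 FPKM, and TNNI1, a troponin I, had 5.29, 2.35, 0.983 and 3.94. TNNT2 and MYL3 were lower at each later stage. MYL4, another myosin light chain of the embryonic heart, was higher instead, at 21.8, 19.0, 79.4 and 380.4 FPKM. Of 14 kept cardiac genes, 5 were lower and 1 higher, with a median of −0.67. Cardiac markers, 6 of 7 in the table, summed to 93.7, 50.2, 27.4 and 22.5 FPKM, most of it MYL3 and TNNT2, so the sum repeats their values, and NKX2-5 was listed at 0 in HH12. Of the markers that were not called, MYL2 had 7.57, 1.55, 4.35 and 4.43 FPKM and MYH15 had 2.46, 1.27, 1.41 and 1.88. Somite and skeletal muscle genes were near the floor. Of 17 on numbered chromosomes 5 were kept, of which 3 were lower, among them TCF15 and RIPPLY1 at 3.52 and 2.78 FPKM in HH10, and ACTA1, an actin, was higher at 7.06 and 17.2 FPKM. Somite markers, 5 of 6 in the table, summed to 5.27 FPKM in HH10 and 0.712 in HH12, most of it the called gene TCF15.

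Some patterning genes of mesoderm were lower by at least 2-fold in HH12, though most kept members of their lists were not. HOXB4, a Hox gene of the hindbrain and trunk on chromosome 27, had 29.5 FPKM at HH10, 7.77 at HH11, 8.71 at HH12 and 48.1 at HH13, a difference of −1.65. Of 25 listed Hox genes on numbered chromosomes 14 were kept, of which 6 were lower and none higher, with a median of −0.91 that ranged from −1.42 to −0.14 over the alternatives. The other lower ones were HOXA2, HOXA4, HOXB1, HOXB3 and HOXB5, with 1.92 to 8.70 FPKM in HH10 and 0.358 to 3.56 in HH12. For HOXA4, HOXB3, HOXB4 and HOXB5, HH13 was above HH10. PRRX1, a homeobox factor of limb and body wall mesenchyme, had 8.82, 2.12, 1.66 and 8.23 FPKM. ALDH1A2, the enzyme that makes retinoic acid in mesoderm, had 8.83, 2.04, 1.63 and 4.88 FPKM, and IRX6, a homeobox factor, had 6.28, 1.59, 0.637 and 8.15. HH11 and HH12 were below HH10 and HH13 for these 3 genes. PTN, a heparin-binding growth factor, had 6.08, 1.19, 0.915 and 2.81 FPKM, and its difference was −0.91 with a pseudocount of 5. Of 16 kept lateral plate genes, 4 were lower and none higher, with a median of −0.64 that ranged from −0.78 to −0.09. Of 20 kept genes of the primitive streak and caudal mesoderm, EVX1, CHRD, FGF8 and TBX6 were lower and CDX1 was higher. The median was −0.56, but 0.01 among genes with at least 5 FPKM in either library. With a pseudocount of 5, no gene under 5 FPKM in both libraries can reach 2-fold. EVX1, CHRD, FGF8 and TBX6 were all under 5 FPKM in both, and EVX1 and CHRD then had differences of −0.78 and −0.68. The retinoid list had 3 lower genes of 17 kept, namely ALDH1A2, CYP26C1 and RBP7, and a median of −0.13. The sign of that median changed with scaling and among genes with at least 5 FPKM in either library. The part that neural, cardiac and somite tissue in the dissected sample may have in these values was not tested.

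Endothelial genes were mixed. Of 34 kept, 3 were higher (8.82%) and 2 lower (5.88%), beside 2.41% and 2.32% over all genes, with a median of −0.20. ESAM, an adhesion molecule of endothelial junctions, had 10.4 FPKM at HH10, 5.89 at HH11, 4.06 at HH12 and 18.4 at HH13. NRP1, a co-receptor for vascular growth factors, had 10.6, 3.87, 3.49 and 13.9 FPKM. LYVE1, a hyaluronan receptor, had 0.245, 0.294, 2.34 and 10.05 FPKM, and MMRN1 and PALMD were the other higher genes. Endothelial markers, 7 of 8 in the table, summed to 87.0, 40.7, 64.3 and 171 FPKM, so HH12 lay below HH10 while HH13 was the highest. The called gene ESAM is part of that sum. TEK (3.75 to 4.14 FPKM from HH10 to HH12) and TIE1 (4.36 to 4.52) had higher values in HH12, and CDH5, KDR, ESAM, CLDN5 and EGFL7 had lower ones. In the arterial, venous and Notch list, 3 of 19 kept genes were lower, none was higher, and the median was −0.40. NOTCH1, the receptor, had 10.8, 6.23, 4.18 and 11.3 FPKM, and NRARP, a Notch target that limits the pathway, had 13.7, 12.5, 5.44 and 13.3. LFNG, which modifies the Notch receptor, had 8.86, 2.95, 3.06 and 9.84 FPKM. HH13 stood close to HH10 for these 3 genes. Of 20 angiogenic ligands and receptors, EDN1, EDN2 and TNC were higher and NTN1 was lower, with a median of 0.26. PGF, a placental growth factor and the highest of them, had 21.5 FPKM in HH10 and 37.8 in HH12, below 2-fold.

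Several lists held no called gene, beside 4.72% called over all genes, a share at which most lists of this size would hold few. None of 59 kept ribosomal protein genes, 40 respiratory chain genes, 44 cell cycle genes, 33 glycolysis and hypoxia genes, 38 Wnt genes or 28 lysosome genes was 2-fold apart. Ribosomal protein genes had a median of 0.27 and respiratory chain genes one of 0.24, beside shifts of 0.21 and −0.16 in the median of all genes from scaling. The medians of cell cycle and of glycolysis were 0.02 and 0.07, and that of Wnt genes was −0.17, and the sign of these 3 changed with scaling. That of Wnt genes also changed among genes with at least 5 FPKM in either library. The BMP and lipid lists held 1 called gene each, CHRD (3.70 to 0.440 FPKM) and FABP5 (8.52 to 2.09 FPKM), both lower. Among matrix proteases and their inhibitors, ADAM8 and PLAU were higher and HTRA1, a secreted serine protease with 261 FPKM in HH10 and 127 in HH12, was lower. The lists held 54 of the higher and 48 of the lower genes.

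**Figure D3:**
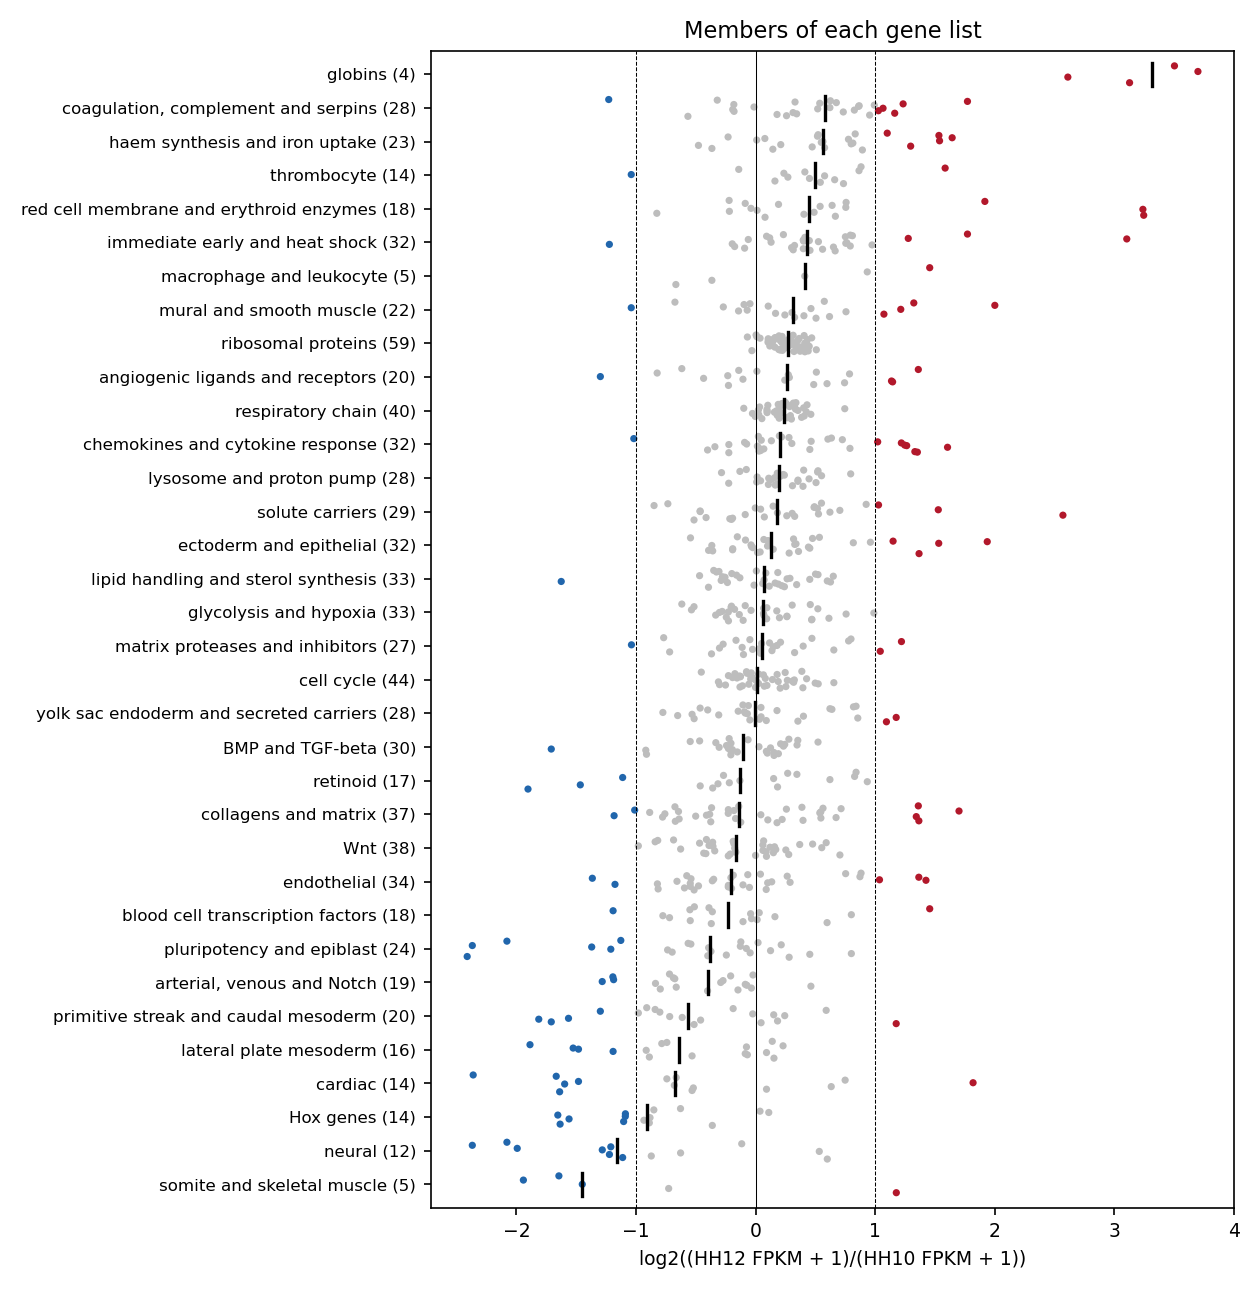
Log2 difference between HH12 and HH10 of each kept member of the 34 gene lists, with the number kept in brackets, a black bar at each list's median and dashed lines at 2-fold. Globins lie furthest right with a median of 3.32, the neural list has a median of −1.16, and the 59 ribosomal protein genes lie in a narrow band.

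Many members could not be named. Of the 244 higher genes, 189 had a symbol, 38 had no name and 12 had names with the small nucleolar RNA prefixes, which leave out U3. Of the 235 lower genes, 144 had a symbol, 32 had no name and 38 had names with these prefixes. Listed at 0 in 1 of the 2 libraries were 20 higher and 49 lower genes. With the filter of 1 FPKM and the pseudocount of 1, every kept gene listed at 0 in 1 library is called. These counts therefore follow from the rule and are all the kept genes listed so. The largest row among them, named 5S ribosomal RNA, had 5613 FPKM in HH10 and was listed at 0 in HH11 and HH12. The highest higher microRNA row, gga-mir-3526, had 561 FPKM at HH10, 101 at HH11, 2732 at HH12 and 1483 at HH13. Of the higher genes 38, and of the lower genes 61, shared a deposited locus with another row. At 4-fold, 38 genes were higher and 59 lower, of which 16 and 11 had a symbol. Close to the 2-fold limit, GTF2H5 (62.3 to 126 FPKM) was just inside and SOD3 (10.7 to 22.3) just outside on the higher side. On the lower side BTBD6 (57.5 to 28.3 FPKM) was just inside and TGIF2 (22.7 to 10.8) just outside.

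The libraries left out placed the 2 groups of genes differently. Of the 189 higher genes with a symbol, HH11 was below both libraries in 81, between them in 82 and above both in 26. HH13 was above both in 101 of them, between in 63 and below both in 25. Of the 144 lower genes with a symbol, HH11 was between HH10 and HH12 in 116, below both in 24 and above both in 4. HH13 was between them in 95, above both in 32 and below both in 17. By the nearer library, 105 higher genes (55.6%) had HH11 nearer HH10 and HH13 nearer HH12, the course of the globins and of AQP1. A further 35 higher genes (18.5%) had HH11 nearer HH12 and HH13 nearer HH10, the course of MIP-3ALPHA and SLC5A8. Among the lower genes the latter course was the most frequent, with 64 genes (44.4%), among them CDH2, SOX11 and HOXB4. Another 32 lower genes (22.2%), TNNT2 among them, had both left-out libraries nearer HH12. These are counts over libraries with no replicate. The genes were picked for HH10 and HH12 lying apart, which by itself favours a left-out library lying between them. The same counts were not made over all kept genes, so these have no background to be read against.

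HH13 against HH11 uses neither library of the comparison. Of the 10459 genes kept in it, 13.6% had at least 2-fold more FPKM in HH13 and 5.48% had at least 2-fold less. The overlaps below are among the 9986 genes kept in both comparisons. Of these, 1237 were higher and 539 lower in HH13 than in HH11. Of 232 higher genes kept in both comparisons, 107 were also higher in HH13 than in HH11, which is 46.1% of them and 8.65% of the 1237 genes higher there. Another 45 were lower, which is 19.4% of the 232 and 8.35% of the 539 genes lower there, MIP-3ALPHA, SLC5A8, SLC6A6 and KRT20 among them. Of 202 lower genes kept in both, 65 were higher in HH13 than in HH11 (32.2% of them and 5.25% of the 1237), and 27 were lower (13.4% and 5.01% of the 539). The medians of HH13 against HH11 were 0.83 for the higher genes and 0.57 for the lower genes, beside −0.05 for all genes kept in both. Both medians were thus above 0, that of the lower genes included.

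**Figure D4:**
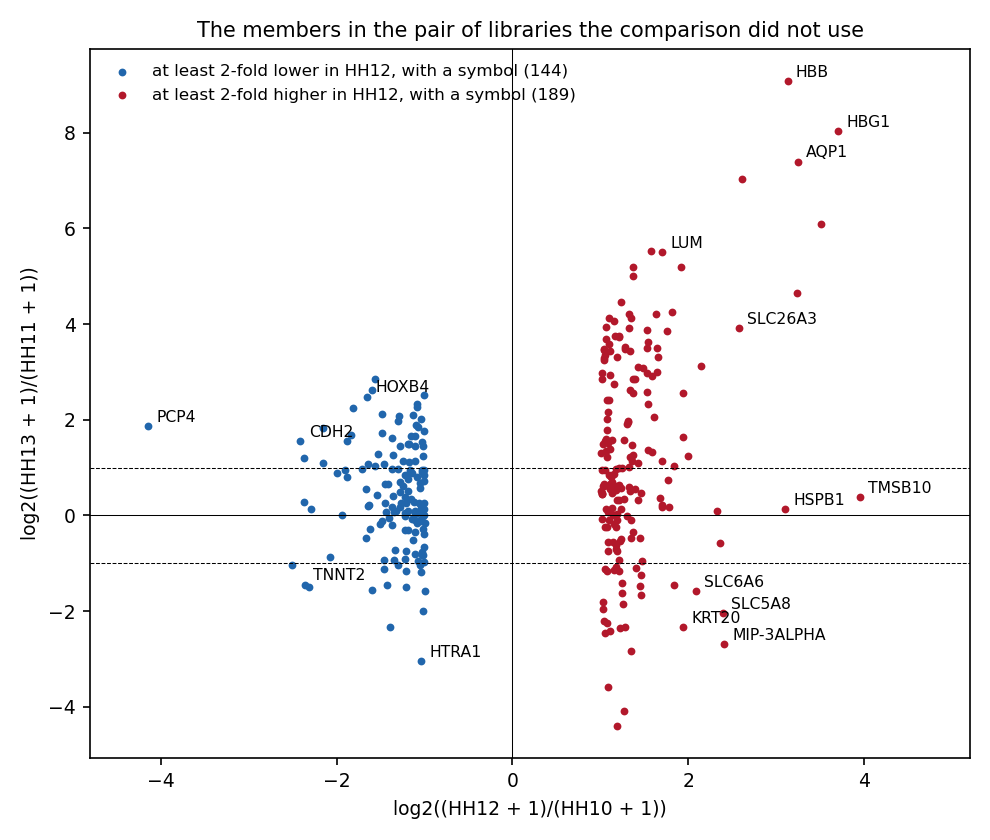
Log2 difference of the called genes with a symbol between HH12 and HH10 (horizontal) and between HH13 and HH11 (vertical), with dashed lines at 2-fold on the vertical axis. Globins and AQP1 lie at the upper right, SLC6A6, SLC5A8, KRT20 and MIP-3ALPHA at the lower right, and HOXB4 and CDH2 among lower genes above 0.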

How the data were processed

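RNA sequencing of 4 libraries (HH10, HH11, HH12, HH13) gave 1 table of 17108 rows. The submitters' processing notes list TopHat2 2.0.8, Cufflinks, Cuffdiff and the build galGal4, and the sources used here give no other version, annotation release or library scaling. Deposited values are FPKM per gene, per the file headers; the deposited p-value and q-value columns were not used. Coordinates are the authors' loci, with starts raised by 1.

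Rows on 28 numbered chromosomes were summed by gene name where the name was a symbol (58 symbols of several rows). Rows with no name or with an RNA name were not summed, and each counts as a separate gene. Genes were kept at 1 FPKM or more in either library and compared as log2 values with a pseudocount of 1. With 1 library per stage no test was run and no error can be given; depth is unknown. Python 3.11.15, pandas 2.3.3, numpy 2.4.6 and matplotlib 3.10.9 were used, and the script was tested on simulated data.

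The members and the 34 lists were chosen with earlier results of these data known. Markers and list genes were matched by exact name, so a gene under another name is missing from these counts and sums. Named genes are the 15 largest differences each way with a symbol and at least 5 FPKM, the extremes and highest member of each list, the genes beside the 2-fold limit and the 5 most abundant. Further genes serve as examples and were picked with their values in view. The alternatives were other pseudocounts, filters, scalings, row handling and threshold. The values of some genes are not reported here.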

Additional observations from a re-analysis of the deposited data

Results flagged for a closer look

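Genes outside the numbered chromosomes were not part of the comparison, and 4 of them had strong signal there. The alpha globin HBAA, on an unplaced scaffold, had 729 FPKM at HH10, 182 at HH11, 5780 at HH12 and 12477 at HH13. The alpha globin HBAD, also on an unplaced scaffold, had 113, 22.1, 1208 and 2887 FPKM. Both had the same order over the libraries as the beta-type globins on chromosome 1.

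HINTW and ATP5A1W, on unplaced scaffolds, are named for the female chromosome W. HINTW was listed at 0 in HH10 and had 1530 FPKM at HH11, 2389 at HH12 and 1604 at HH13, and no fold is given for it. ATP5A1W had 0.654 FPKM in HH10 and 213, 237 and 264 in HH11, HH12 and HH13. On chromosome W, 7 of 7 kept genes were at least 2-fold higher in HH12 than in HH10. On chromosome Z, 7 of 514 kept genes were higher and 39 lower, with a median of −0.48. On the numbered chromosomes 2.41% of kept genes were higher and 2.32% lower, with a median of 0.04. The part of the embryos' sex in the differences on numbered chromosomes was not tested.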

How the results depend on the processing

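With a pseudocount of 0.1 FPKM, 396 genes were higher and 484 lower, and with one of 5 FPKM, 96 and 72. With both libraries at the same total, 415 were higher. With at least 5 FPKM in either library, 144 genes were lower, as were 144 when genes without a symbol were left out. At 4-fold, 38 were higher and 59 lower. HH11 in place of HH10, an alternative chosen after seeing the data, gave 468 higher and 152 lower. The other alternatives kept both counts within 1.5 times, among them genes above 0 in both libraries (224 and 186), also chosen after seeing the data. The cause was not tested.

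Of 926 recomputed differences of named genes none changed sign while called. Of the 61 called named genes, a pseudocount of 5 left 27 under 2-fold, and equal totals left 5. List counts moved in 84 of 544 recomputations.

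Leaving out a replicate was not possible. No paired analysis was possible because each stage has 1 library. FPKM keep no read number, so low values carry an unknown counting error, and the lower genes with a symbol had a median of 5.85 FPKM in HH10.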

Other observations

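On chromosome 16, which carries the chicken major histocompatibility complex, 4 of 23 kept genes were at least 2-fold lower in HH12 than in HH10, or 17.4%, against 2.32% over all genes. This chromosome is named because its share was the highest of 28 and it has few genes. BF1, a class I chain, and B-G were 2 of the 4. BF1 had 7.996 FPKM at HH10, 3.94 at HH11, 2.70 at HH12 and 5.92 at HH13. B-G had 3.38, 0.114, 0.225 and 2.55 FPKM. Genes of this region resemble each other, so the division of reads among them is uncertain.

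Some higher genes belong to no list. GAS6, a ligand of receptor tyrosine kinases, had 17.3 FPKM at HH10, 46.8 at HH11, 49.1 at HH12 and 14.1 at HH13. CA13, a carbonic anhydrase, had 20.6, 7.90, 61.6 and 108 FPKM, and GSTA3, a glutathione transferase, had 69.6, 19.6, 171 and 228.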
